A study of Mus musculus with 10 samples.

Results

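The genes described here are 9 protein-coding genes that were listed as the surroundings of Smchd1 on mouse chromosome 17: Emilin2, Lpin2, Myom1, Ndc80, Mettl4, Myl12a, Myl12b, Tgif1 and Dlgap1. They were picked by symbol out of 35542 genes in the count table, Smchd1 itself was left out, and all 9 passed the filter on low counts, among 15452 autosomal genes that did. RNA was sequenced from the frontonasal prominence (FNP), the embryonic tissue that gives rise to the forehead and nose, of FVB/NJ mouse embryos at E10.5. In the mutant group were 4 libraries from embryos homozygous for MD1, the loss-of-function MommeD1 allele of Smchd1 from a chemical (ENU) mutagenesis screen, with 2 libraries labelled male and 2 labelled female. The controls were 6 libraries with a wild-type genotype at Smchd1 (WT), 3 labelled male and 3 labelled female. The allele is carried in every cell from conception, and females homozygous for it are known to die before birth. Nothing in the labels ties libraries to single embryos or litters, so the p-values below measure the spread between these samples. The question put to these genes is whether a homozygous Smchd1 allele goes along with local changes in expression on its own chromosome.

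SMCHD1 is a chromatin protein related to the structural maintenance of chromosomes family. It is needed for X inactivation and for the silencing of several autosomal gene clusters, and human SMCHD1 variants are found in a syndrome in which the nose does not form. Genes that lie beside a mutated gene are the usual place to look for effects that travel with an allele, since they share its stretch of chromosome. Apart from Myl12a and Myl12b, the neighbours of Smchd1 have unrelated roles. Ndc80 encodes the microtubule-binding subunit of the outer kinetochore, and Mettl4 an adenosine methyltransferase of small nuclear RNA. Myl12a and Myl12b encode regulatory light chains of nonmuscle myosin II, whose phosphorylation switches on contraction. Tgif1 encodes a homeodomain repressor that limits SMAD2 and retinoic acid signalling, and human TGIF1 variants are a cause of holoprosencephaly, a failure of the forebrain and midface to divide. Emilin2 encodes a glycoprotein of the extracellular matrix, and Lpin2 a phosphatidate phosphatase of glycerolipid synthesis. Myom1 encodes the M-band protein myomesin of striated muscle, and Dlgap1 a scaffold of the postsynaptic density of neurons.

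The positions in the count table did not bear out the description for Mettl4. Smchd1 spans 71344489 to 71475343 on chromosome 17 (GRCm38, minus strand). Above it lies Ndc80 (71496100 to 71526857), 20.8 kb away. Below it, in order of distance, lie Emilin2 at 32.5 kb, Lpin2 at 94.7 kb, Myom1 at 217.6 kb, Myl12a at 341.6 kb, Myl12b at 353.6 kb, Tgif1 at 490.9 kb and Dlgap1 at 523.1 kb. Mettl4 spans 94722590 to 94750019, 23.2 Mb from Smchd1, so 8 of the 9 genes are neighbours in the mouse. In human, METTL4 and NDC80 stand side by side near SMCHD1. Mettl4 is kept below and given apart from the other 8 where distance matters.

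The sequence around the start of Mettl4 nevertheless resembles that of Ndc80, and both windows are shown because they tie the distant gene to the neighbour. Each window runs from 250 bases before to 50 bases after the RefSeq start (GRCm38.p6), both genes lie on the minus strand, and the capitals mark bases identical between one window and the reverse complement of the other.
Ndc80: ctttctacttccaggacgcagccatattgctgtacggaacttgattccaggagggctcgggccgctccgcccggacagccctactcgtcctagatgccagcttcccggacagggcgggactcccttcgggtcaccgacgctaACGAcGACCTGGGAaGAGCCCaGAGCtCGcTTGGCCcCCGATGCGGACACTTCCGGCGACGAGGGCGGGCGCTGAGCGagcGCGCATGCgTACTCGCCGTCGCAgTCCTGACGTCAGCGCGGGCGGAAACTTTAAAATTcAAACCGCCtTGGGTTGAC
Mettl4: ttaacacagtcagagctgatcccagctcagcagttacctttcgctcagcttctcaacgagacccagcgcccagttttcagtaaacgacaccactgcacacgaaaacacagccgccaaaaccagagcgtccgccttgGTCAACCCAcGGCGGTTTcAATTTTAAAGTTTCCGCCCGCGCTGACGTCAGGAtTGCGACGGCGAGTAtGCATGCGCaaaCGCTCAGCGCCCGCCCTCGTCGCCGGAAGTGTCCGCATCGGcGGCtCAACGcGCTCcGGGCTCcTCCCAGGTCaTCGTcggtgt
Of 159 aligned columns, 145 were identical (91.2%), with 2 gap columns and a longest identical run of 41 bases. The 2 windows are chr17:71526808-71527107 for Ndc80 and chr17:94749970-94750269 for Mettl4. This was the best of 276 local alignments between 18 promoter windows of the 9 genes and Smchd1, with a score of 242 against 28 for the next. The resemblance runs on opposite strands. GENCODE places a transcribed unprocessed pseudogene, 2700099C18Rik (94750100 to 94775132, plus strand), 80 bases from the start of Mettl4 and pointing away from it. In its best alignment with an Ndc80 transcript, 1258 of 1770 aligned columns, gap columns included, were identical (71.1%). The identical bases make up 93.6% of the 1344 bases of the pseudogene transcript. An Ndc80-like copy thus sits head to head with Mettl4 in the annotation, and its expression was not analysed here. Within the aligned promoter stretch, both windows hold GACGTCA, the letters bound by CREB, and GGAAGTG, those bound by GABP, searched on both strands. Each GACGTCA overlaps a second match on the other strand. GACGTCA occurs in 1053 of the 32851 promoter windows in the table (3.2%), and GGAAGTG in 3615 of them. Among the other windows searched, GACGTCA is also in that of Myl12a, and GGAAGTG in those of Myl12b and Smchd1 and in 1 of Emilin2. Such matches are letters in a window, not measured binding.

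Smchd1 itself checked the labels. Its level in counts per 1000000 reads of the TMM-scaled library (CPM) was 55.3, 99.9, 67.2 and 91.9 in MD1 replicates 1 to 4, against 265, 229, 240, 254, 255 and 234 in WT replicates 1 to 6. Every MD1 library was below every WT library, with a log2 fold change of -1.65 (SE 0.15, adjusted p = 0.000785, edgeR quasi-likelihood test) and a 95% interval from -1.97 to -1.32.

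Library totals ranged from 4195119 counts (MD1 replicate 3) to 24125084 counts (WT replicate 3). Some libraries stood apart. The library labelled MD1 female replicate 1 held 300.5 Y-linked reads per 1000000, a level within the 254.8 to 324.9 of the libraries labelled male, and it had the highest summed level of 4 yolk sac endoderm genes, 318.8 CPM against at most 26.4 CPM in WT. MD1 replicate 4 had the highest sum of 12 hypoxia response genes, 10990 CPM against 1086 to 2453 CPM in WT, the highest sum of 4 erythroid genes, 11320 CPM against 1590 to 2205 CPM in WT, and the lowest sum of 8 facial mesenchyme markers, 902.6 CPM against 1329 to 1885 CPM in WT. Its endothelium sum was the highest too, at 574 CPM against at most 370.4 CPM in WT. So were its neuroepithelium sum (554.8 CPM against at most 435.5 CPM) and its surface and nasal ectoderm sum (304.6 CPM against at most 227.5 CPM). Its sum of 10 mitosis genes was the lowest, at 3093 CPM against at least 3390 CPM in WT. All 8 mesenchyme markers passed the filter, as fits the labelled tissue. Of 8 heart muscle markers, 6 were at or under 1 CPM in all 10 libraries. In bulk tissue, fewer cells of a type and less RNA per cell cannot be told apart.

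To place the genes on a common scale, the deposited log2 RPKM values were ordered, which count reads per kilobase of transcript and per 1000000 reads on a log2 scale. In MD1 the means ran from 5.05 for Myl12a through Myl12b at 4.32, Tgif1 at 3.12, Ndc80 at 3.07, Emilin2 at 2.98, Lpin2 at 2.90 and Mettl4 at 2.36 to Myom1 at -1.79 and Dlgap1 at -4.68. In WT the order of the 9 was the same, with 5.05 for Myl12a, 4.47 for Myl12b, 3.38 for Tgif1, 3.19 for Ndc80, 3.07 for Emilin2, 3.00 for Lpin2, 2.48 for Mettl4, -2.24 for Myom1 and -4.87 for Dlgap1. The 2 myosin light chain genes led in both genotypes with ranges over libraries that overlapped no neighbour in the order. Tgif1, Ndc80, Emilin2 and Lpin2 overlapped their neighbours in the order and could not be ranked among themselves, and in MD1 Lpin2 overlapped Mettl4 too. Myom1 and Dlgap1 stood far below the rest, and their MD1 means on this scale were above those of only 6.56% and 0.0971% of the tested genes. With 139 Dlgap1 reads over all 10 libraries, the counts of this gene carry large counting error. The Smchd1 mean fell between those of Myl12b and Tgif1 in WT, at 3.47, and below that of Mettl4 in MD1, at 1.71. Its range overlapped that of Tgif1 in WT and that of Mettl4 in MD1. The 2 lists are read for order only, since the median log2 fold change over all genes on this scale was -0.096, MD1 over WT.

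**Figure D1:**
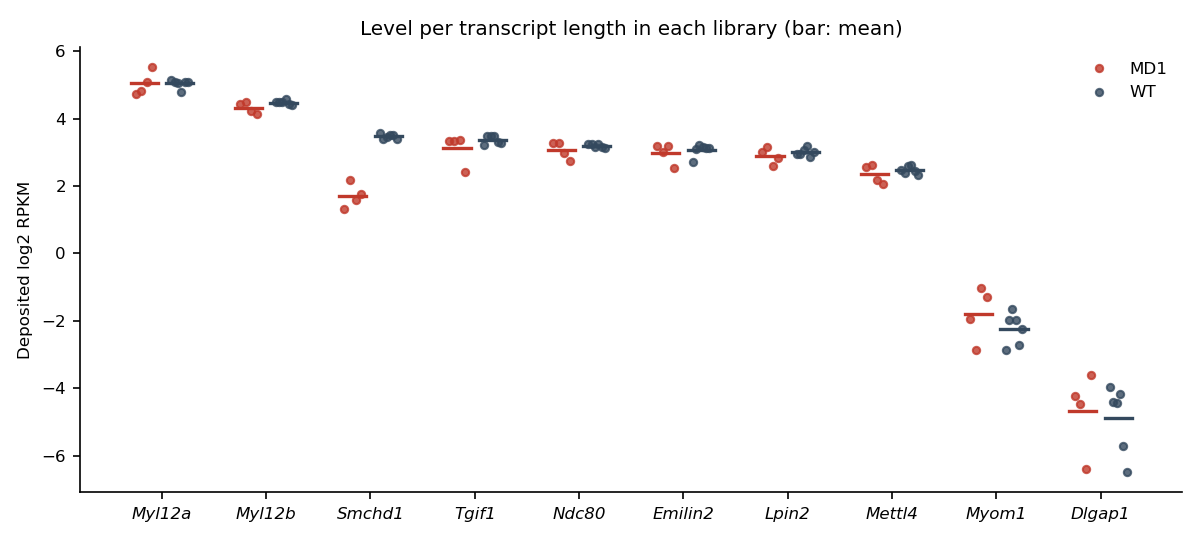
Deposited log2 RPKM (vertical axis) of the 9 genes and Smchd1 (horizontal axis, ordered by the WT mean) in each MD1 (red, left) and WT (blue, right) library, with bars at the means. The means of the 9 genes keep 1 order in both genotypes. The Smchd1 mean is below that of Mettl4 in MD1, at 1.71, and above that of Tgif1 in WT, at 3.47, with overlapping ranges in both.

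None of the 9 genes passed the test between MD1 and WT, and their MD1 and WT libraries overlapped. At an adjusted p of 0.05 or less the edgeR quasi-likelihood test called 0 of 9, and the whole table had 12 calls among 15452 autosomal genes (0.0777%). At an unadjusted p below 0.05 it again gave 0 of 9, where 1497 of 15452 genes (9.69%) passed. DESeq2 and limma-voom also called 0 of the 9. The smallest adjusted p was 0.561, for Myom1. For 0 of the 9 genes did all MD1 libraries lie above all WT libraries, which 0.99% of tested genes did, and for 0 did they all lie below, which 1.06% did. The log2 fold changes ran from -0.16 (Tgif1) to 0.59 (Myom1) with a median of -0.02, and 3 of 9 were above 0. Over all tested genes the median was 0.00. A p that misses the threshold does not show equal levels, so the intervals matter. For 6 genes, Emilin2, Lpin2, Ndc80, Mettl4, Myl12b and Tgif1, the 95% interval of the fold lay within 0.734 and 1.17, while Smchd1 stood at 0.320-fold. For Myl12a it reached 1.44-fold, for Myom1 2.56-fold and for Dlgap1 2.97-fold.

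**Figure D2:**
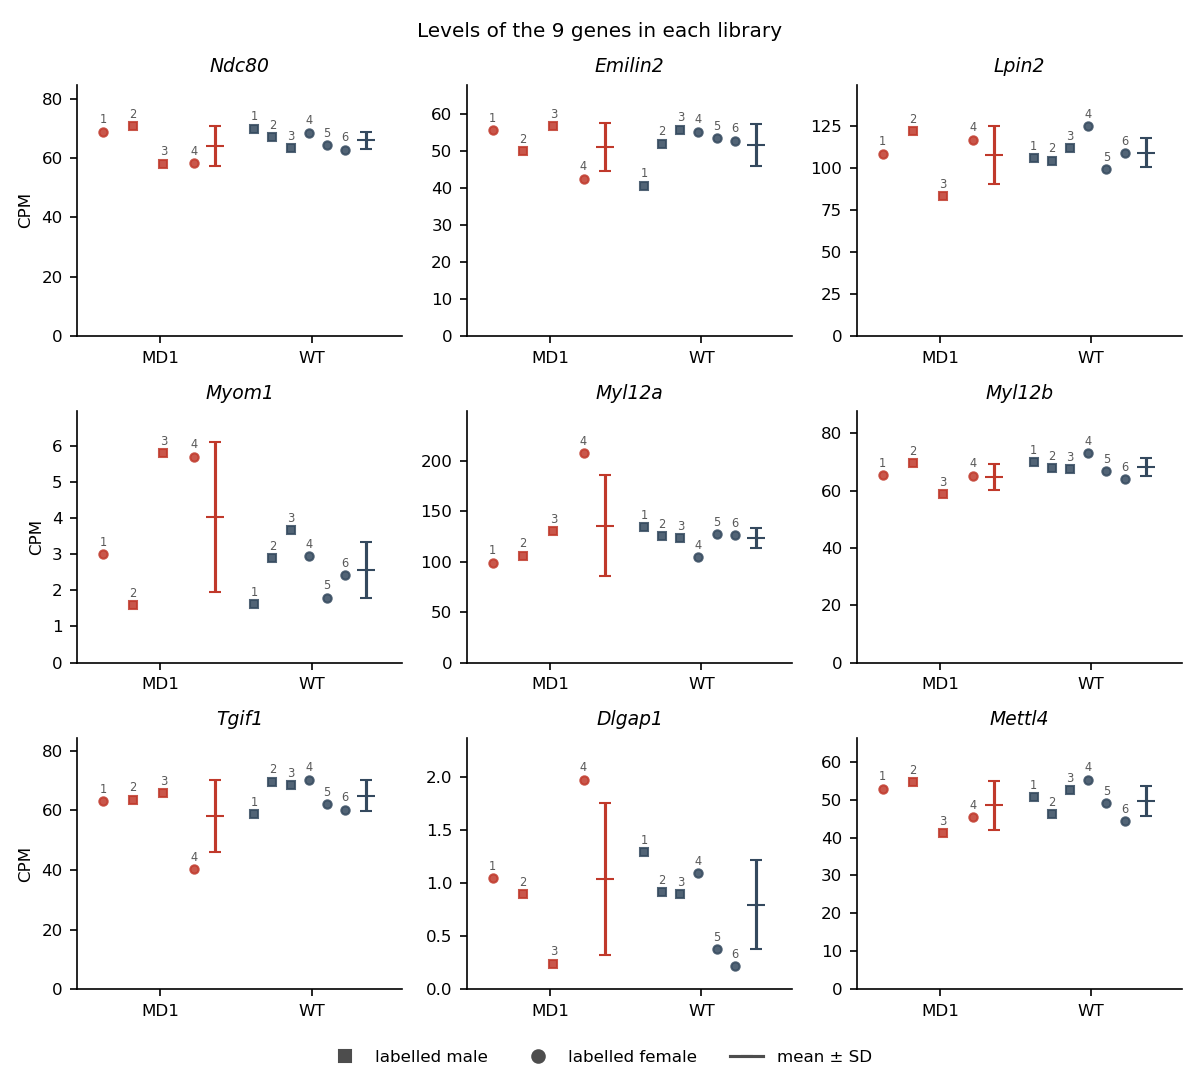
CPM (vertical axes, each from 0) of each of the 9 genes in MD1 (red, left) and WT (blue, right) libraries, numbered by replicate, with squares for libraries labelled male, circles for those labelled female, and mean ± SD beside them. The genotypes overlap for all 9 genes, and MD1 replicate 4 is the high point of Myl12a at 208 CPM and the low point of Tgif1 at 40.3 CPM.

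Ndc80, the nearest of the 9 and the kinetochore gene, was at 68.9, 70.6, 58.0 and 58.2 CPM in MD1 replicates 1 to 4, against 69.9, 66.9, 63.3, 68.5, 64.2 and 62.7 CPM in WT replicates 1 to 6. MD1 replicate 2 was just above the WT range and MD1 replicates 3 and 4 were below it. The means were 63.9 ± 6.8 CPM in MD1 (SD, n = 4) and 65.9 ± 2.9 CPM in WT (SD, n = 6), a difference of -0.04 on the log2 scale (SE 0.08, adjusted p = 0.854, edgeR) with a 95% interval of 0.858- to 1.10-fold. The mitosis sum was lowest in MD1 replicate 4, at 3093 CPM, and its part in the Ndc80 values was not tested. Mettl4 was at 52.9, 54.6, 41.1 and 45.3 CPM in MD1, against 50.6, 46.2, 52.4, 55.3, 49.0 and 44.4 CPM in WT. Only MD1 replicate 3, the shallowest library, left the WT range, on the low side. The log2 fold change of Mettl4 was -0.03 (SE 0.10, adjusted p = 0.926, edgeR), and the differences of both genes, whose windows are printed above, were smaller than their errors.

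Myl12a and Myl12b lie next to each other and encode near-identical proteins, yet their values varied differently. Myl12a was at 99.1, 106, 130 and 208 CPM in MD1 replicates 1 to 4, against 135, 125, 123, 104, 127 and 126 CPM in WT. MD1 replicate 1 was the lowest of the 10 libraries and MD1 replicate 4 the highest, so the MD1 libraries enclosed the WT range. The means were 136 ± 50 CPM in MD1 (SD, n = 4) and 123 ± 10 CPM in WT (SD, n = 6), giving 0.14 on the log2 scale (SE 0.18, adjusted p = 0.768, edgeR). Without MD1 replicate 4 the log2 fold change of Myl12a was -0.15 (adjusted p = 0.864, edgeR), so the sign rested on that library, which also had the highest hypoxia and erythroid sums and whose part in the value was not tested. Myl12b was at 65.5, 69.6, 58.7 and 65.3 CPM in MD1, against 70.1, 67.8, 67.5, 73.2, 66.8 and 64.1 CPM in WT. Its libraries stayed close together, with only MD1 replicate 3 below the WT range. Its log2 fold change was -0.07 (SE 0.07, adjusted p = 0.71, edgeR).

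The counts of this pair cannot be assigned to each gene with confidence. Another annotated model, Gm49909, runs along the same strand and shares 462 exon bases with Myl12a (13.75%) and 739 with Myl12b (26.68%). Of all stretches of 75 bases in the transcripts of Myl12a, 18.53% occur in another annotated gene, and 24.75% of those of Myl12b do. Gm49909 was at 110, 120, 141 and 168 CPM in MD1, against 153, 143, 143, 125, 141 and 138 CPM in WT, the same MD1 order as Myl12a. The 3 models were also summed as 1 feature, a choice made after seeing the data. A read on shared bases may have been counted for more than 1 model, so the sum may hold some reads more than once. The sums were 274.3, 295.7, 330.1 and 441.2 CPM in MD1 replicates 1 to 4, against 302.7 to 357.6 CPM in WT. The log2 fold change of the sum was 0.01 (SE 0.12, adjusted p = 0.97, edgeR). Myl12a also shares 207 exon bases with Myom1 on the opposite strand, and the library kit does not keep the strand.

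Tgif1, the repressor of Nodal and SMAD2 signalling, was at 63.0, 63.5, 65.7 and 40.3 CPM in MD1 replicates 1 to 4, against 58.8, 69.5, 68.5, 70.3, 62.0 and 60.3 CPM in WT. MD1 replicates 1 to 3 lay inside the WT range and MD1 replicate 4 was the lowest of all 10 libraries. The means were 58.1 ± 12.0 CPM in MD1 (SD, n = 4) and 64.9 ± 5.1 CPM in WT (SD, n = 6), giving -0.16 on the log2 scale (SE 0.13, adjusted p = 0.641, edgeR). Without MD1 replicate 4 it was -0.02 (adjusted p = 0.984, edgeR). The facial mesenchyme sum was lowest in that library too, and its part in the Tgif1 value was not tested.

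Emilin2, the matrix glycoprotein gene, was at 55.5, 49.9, 56.5 and 42.4 CPM in MD1, against 40.5, 51.9, 55.6, 55.1, 53.4 and 52.7 CPM in WT. The 2 lowest values came from 1 library of each genotype, MD1 replicate 4 and WT replicate 1. The hypoxia sum was 10990 CPM in MD1 replicate 4 and 2453 CPM in WT replicate 1, each the highest of its genotype. In MD1 replicate 1 it was 2541 CPM, above that of WT replicate 1, with Emilin2 inside the WT range at 55.5 CPM. The part of the hypoxia genes in these values was not tested. The log2 fold change was -0.02 (SE 0.11, adjusted p = 0.963, edgeR). Lpin2, the phosphatidate phosphatase gene, was at 108, 122, 83.1 and 117 CPM in MD1, against 106, 104, 112, 125, 99.3 and 109 CPM in WT. MD1 replicate 3 was again the lone library outside the WT range, below it. For Lpin2 the log2 fold change was -0.02 (SE 0.10, adjusted p = 0.961, edgeR).

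Myom1 and Dlgap1, whose known sites of expression are striated muscle and synapses, were barely expressed in the FNP. Myom1 was at 3.00, 1.6, 5.80 and 5.70 CPM in MD1 replicates 1 to 4, from 63, 16, 24 and 75 reads. In WT it was at 1.61, 2.89, 3.66, 2.95, 1.80 and 2.41 CPM, from 15 to 90 reads. MD1 replicates 3 and 4 were above the WT range and MD1 replicate 2 was just below it, so the groups overlapped. The means were 4.02 ± 2.08 CPM in MD1 (SD, n = 4) and 2.55 ± 0.77 CPM in WT (SD, n = 6), giving 0.59 on the log2 scale (SE 0.35, adjusted p = 0.561, edgeR), the largest of the 9. Left-out libraries moved it between 0.28, without MD1 replicate 4, and 0.85, without MD1 replicate 2 (adjusted p = 0.286, edgeR). The 8 heart muscle markers summed to 1.45 to 6.77 CPM in MD1 and 2.37 to 4.52 CPM in WT, with Myl2 at 0 reads in all 10 libraries. The 5 skeletal muscle precursor markers summed to 28.3 to 70.0 CPM in MD1, highest in MD1 replicate 4, and 32.5 to 63.3 CPM in WT. Nearly all of it was Pax3, which neural crest and neural tube cells also express. Of the others, Myf6 was at 0 reads in all 10 libraries, Myod1 and Myog in 8 each and Myf5 in 2. The part of such cells in the Myom1 values was not tested. Nor was the part of reads from the 207 exon bases shared with Myl12a, which was at 99.1 to 208 CPM in MD1. Dlgap1 was counted 22, 9, 1 and 26 times in MD1 replicates 1 to 4, against 12, 20, 22, 20, 4 and 3 times in WT. On the CPM scale MD1 replicate 4 was the highest of all 10, at 1.98, and WT replicate 6 the lowest, at 0.219. The 5 neuronal markers summed to 140.6 to 288.8 CPM in MD1 and 181.4 to 312.1 CPM in WT, with MD1 replicate 4 lowest. The Dlgap1 log2 fold change was 0.49 (SE 0.49, adjusted p = 0.706, edgeR), with an interval from -0.58 to 1.57. It was 0.07 without MD1 replicate 4 and -0.27 without both libraries labelled MD1 female.

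Library by library, the 9 genes followed no common direction. MD1 replicate 1 put 1 of 9 genes outside the WT range, where 28.4% of all tested genes lay outside it, and MD1 replicate 2 put 2 of 9 outside, against 41.6% of tested genes. MD1 replicate 3 put 6 of 9 outside, 2 above and 4 below, against 50.5% of tested genes. MD1 replicate 4 put 5 of 9 outside, 3 above and 2 below, against 71.0% of tested genes. The deviations of Lpin2, Ndc80, Mettl4 and Myl12b were lowest in MD1 replicate 3, the shallowest library. Ndc80 was nearly as low in MD1 replicate 4, at -0.177 against -0.181. The part of depth in these values was not tested.

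**Figure D3:**
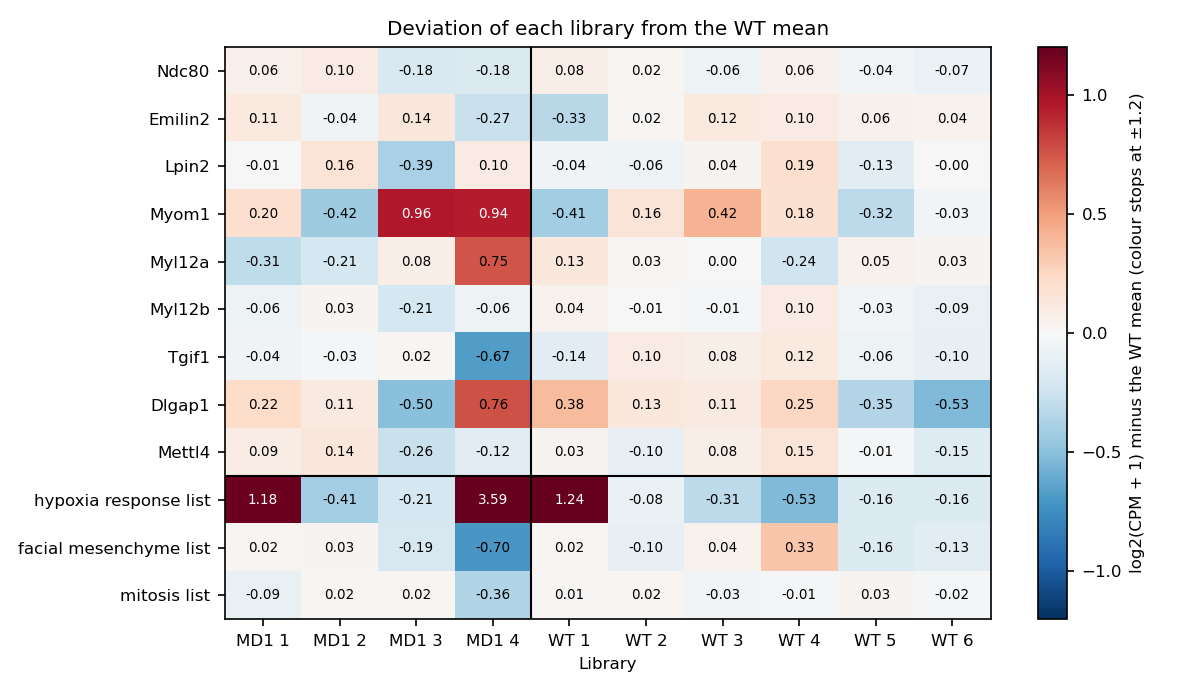
Deviation of each library (horizontal axis, MD1 left of WT) from the WT mean in log2(CPM + 1), for the 9 genes (upper rows) and for the means of the hypoxia, facial mesenchyme and mitosis lists (lower rows), with colour from blue (lower) to red (higher). MD1 replicate 4 deviates by 0.75 for Myl12a, -0.67 for Tgif1 and 3.59 for the hypoxia list, while the farthest value of MD1 replicates 1 and 2 over the 9 genes is -0.425, for Myom1 in MD1 replicate 2.

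The 36 pairs among the 9 genes were compared over the 10 libraries by log2(CPM + 1). No pair passed after Benjamini-Hochberg adjustment over the 36 (permutation test, 100000 resamples, 2-sided), and 9 pairs had an unadjusted p below 0.05. Ndc80 and Mettl4, with the shared promoter stretch, gave Pearson's r = 0.794 (permutation p = 0.00695, adjusted 0.0625) and Spearman's rho = 0.794 (permutation p = 0.00879, adjusted 0.127). Without the 2 libraries farthest from the Ndc80 median, MD1 replicates 3 and 4, r was 0.596. Within the 6 WT libraries it was 0.434 (exact permutation p = 0.379), and 4 MD1 libraries are too few for a value. The part of the promoter stretch in this value was not tested. Mettl4 and Myl12b gave the highest r of the 36, 0.828 (permutation p = 0.0022, adjusted 0.0625), and rho = 0.782 (permutation p = 0.0106, adjusted 0.127). Without the 2 libraries farthest from the Mettl4 median their r was 0.585. Within the 6 WT libraries that pair gave r = 0.833 (exact permutation p = 0.0417, not adjusted). Some negative values were also larger in size than 0.794. Myl12a and Tgif1 gave r = -0.847 (permutation p = 0.024, adjusted 0.108). Myom1 and Ndc80 gave r = -0.802 (permutation p = 0.00536, adjusted 0.0625).

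The 9 genes were also tested within each labelled sex. In 1 model with a mean for each genotype and sex, over 16084 genes, 0 of 9 genes were called in males (3 calls in the table, 0.0187%), 0 of 9 in females (2 calls, 0.0124%) and 0 of 9 in the difference between the sexes (0 calls, 0.0%). None of the 9 had an unadjusted p below 0.05 in any of the 3 contrasts (edgeR). Smchd1 itself, at a log2 fold change of -1.54, was not called in males (adjusted p = 0.0833, edgeR). In females, at -1.76, it passed narrowly (adjusted p = 0.0466, edgeR). With so little power, the lack of calls within a sex does not show that the 9 genes were unchanged. In males, MD1 against WT, the log2 fold changes ran from -0.61 (Dlgap1) to 0.27 (Myom1). In females they ran from -0.31 (Tgif1) to 1.31 (Dlgap1, SE 0.65, adjusted p = 0.299). The largest difference of the effects was that of Dlgap1, 1.92 (SE 1.00, adjusted p = 0.491), on few reads. Groups here hold 2 MD1 and 3 WT libraries a sex, and the library labelled MD1 female replicate 1 carries Y-linked reads at the male level. Without it MD1 replicate 4 stood alone against the 3 WT females, and Myl12a (log2 fold change 0.80, adjusted p = 0.000968, edgeR) and Tgif1 (-0.68, adjusted p = 0.00431) passed the threshold in females and in the difference. In that setting 31.9% of all genes passed in females and 20.9% in the difference, the lone library being assumed to vary like the others.

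The rest of the region gave the same count. Of 63 other genes of the table within 3 Mb of Smchd1, 26 could be tested and 0 were called at an adjusted p of 0.05 or less (edgeR; 1 had an unadjusted p below 0.05, and DESeq2 and limma-voom called 0). Their median log2 fold change was 0.08, with 19 of 26 above 0. Over all tested genes the median was 0.00, with 7804 of 15452 above 0. Within 1 Mb, 10 genes were tested, 8 of them above 0, with a median of 0.30 and a median SE of 0.38, larger than the 0.15 over all genes. The highest 3 of the 24 genes with a mean of at least 1 CPM were gene models that overlap the span of Smchd1 and share no base with its exons. Gm38220 and Gm37639 lie inside it, while Gm26561 (70878078 to 71393284) reaches in from below, across the positions of 5 of the 9 genes. Gm38220, on the minus strand like Smchd1, was at 1.57, 1.5, 0.242 and 4.79 CPM in MD1, against 0.512 to 1.53 CPM in WT (log2 fold change 1.11, SE 0.50, unadjusted p = 0.0454, adjusted p = 0.508, edgeR). MD1 replicate 4 was far above the other libraries and MD1 replicate 3 below them all. Gm26561 (1.01, SE 0.51, adjusted p = 0.521) shares 1229 exon bases with Gm38220 on the other strand, so their reads cannot be told apart. Gm26561 and Gm37639 (0.74, SE 0.69, adjusted p = 0.686) were likewise highest in MD1 replicate 4, at 3.95 and 4.18 CPM. So was Gm4707, also inside the span, at 2.51 CPM (0.23, SE 0.57, adjusted p = 0.891), with a mean of 0.907 CPM. All of these models are among the 10 genes within 1 Mb. The part of MD1 replicate 4 in the count above 0 was not tested. The lowest 3 were Gm49883 (-0.22), Lbh (-0.21) and Trmt61b (-0.09), with adjusted p of 0.65, 0.603 and 0.835. The nearest tested gene above Smchd1 outside the 9 was Spdya, 76.7 kb away (0.37, SE 0.26, adjusted p = 0.603). Spdya encodes an activator of cyclin-dependent kinases. Below Smchd1 it was Gm49909 (-0.06, SE 0.11, adjusted p = 0.842). On the rest of chromosome 17, 746 genes gave a median of 0.00 and 0 calls.

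**Figure D4:**
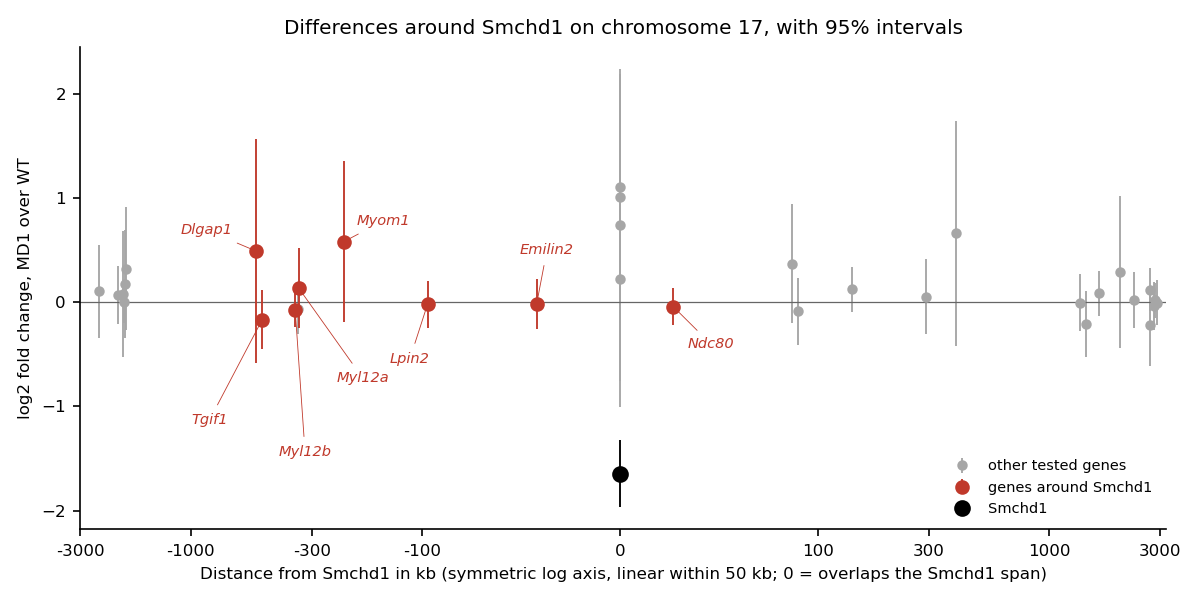
log2 fold change, MD1 over WT (vertical axis, bars are 95% intervals), against distance from Smchd1 in kb (horizontal axis, symmetric log scale, linear within 50 kb), for 8 of the 9 genes (red), the 26 other tested genes within 3 Mb (grey) and Smchd1 (black). Smchd1 lies at -1.65 with an interval below 0, the intervals of the 8 genes all cross 0, and Mettl4, 23.2 Mb away, is not drawn.

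The partners of these genes elsewhere in the genome were read from lists arranged by role. Among 9 other kinetochore genes, 0 were called and 6 of 9 log2 fold changes were below 0 (median -0.01). Spc24, which belongs to the same complex as Ndc80, had the smallest p, with 47.2 ± 3.0 CPM in MD1 (SD, n = 4) and 53.7 ± 4.5 CPM in WT (SD, n = 6), a difference of -0.19 on the log2 scale (adjusted p = 0.512, edgeR). Pmf1 followed at -0.08 (adjusted p = 0.757). Of 6 adenosine methyltransferase genes of RNA, the list for Mettl4, 0 were called. Pcif1, which methylates the cap-adjacent adenosine of mRNA, was at 86.1 ± 5.5 CPM in MD1 and 97.7 ± 6.8 CPM in WT (SD, n = 4 and 6, adjusted p = 0.503, edgeR). All 4 MD1 libraries were below the 6 WT libraries, at most 89.65 against at least 90.1 CPM, as for 1.06% of tested genes. Mettl3, the catalytic subunit of the main mRNA methyltransferase, gave 0.10 (adjusted p = 0.72).

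Of 10 other genes of nonmuscle myosin II and its regulators, 0 were called and 8 were above 0, with a median log2 fold change of 0.15 beside 0.00 over all genes. Rock2, a kinase upstream of the light chains, averaged 149 ± 22 CPM in MD1 and 123 ± 11 CPM in WT (SD, n = 4 and 6), a difference of 0.29 on the log2 scale (SE 0.10, adjusted p = 0.5, edgeR). Its lowest MD1 library, at 137.7 CPM, was above the highest WT library, at 137.5 CPM, a separation found in 0.99% of tested genes. Ppp1r12a, the targeting subunit of the phosphatase that removes phosphate from the light chains, gave 0.24 (SE 0.11, adjusted p = 0.508). The Nodal and SMAD2/3 list, which holds the partners of Tgif1, had 11 of 14 genes tested, 0 called and a median of -0.02. Ski and Skil, both SMAD corepressors, lay on opposite sides of 0 and did not pass, with -0.18 (adjusted p = 0.521) and 0.31 (adjusted p = 0.53).

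Of the remaining lists, those of Lpin2 (7 tested, 6 above 0, median 0.05), Emilin2 (4 tested, median -0.09), Dlgap1 (10 tested, median -0.05) and Myom1 (2 of 7 tested, both below 0) also had 0 calls. The 2 with the smallest p in each were Dgat2 (0.38, adjusted p = 0.556) and Lpin3 (0.26, adjusted p = 0.734) for glycerolipid synthesis, and Emilin1 (-0.18, adjusted p = 0.643) and Mmrn2 (0.10, adjusted p = 0.714) for the matrix family. For the postsynaptic scaffold they were Homer1 (0.41, SE 0.15, adjusted p = 0.5) and Dlg1 (0.24, SE 0.09, adjusted p = 0.5), both scaffold proteins with a mean of at least 67.0 CPM in each genotype. For the M-band they were Obsl1 (-0.16, adjusted p = 0.551) and Ttn (-0.32, adjusted p = 0.825), which encodes titin and averaged 0.736 CPM in MD1 and 0.840 CPM in WT.

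In the comparison of all MD1 with all WT libraries, some settings moved the values of Myl12a, Myl12b, Tgif1, Ndc80 and Dlgap1 by more than 1 SE. For Ndc80 the only such setting was limma on log2 RPKM. That setting also shifted the median log2 fold change over all genes, to -0.096 from 0.003 in the main fit. Over 21 alternatives, which covered scaling, filter, test, covariates and each library left out, 0 of the 9 genes and 0 of the other genes within 3 Mb were called in any.

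**Figure D5:**
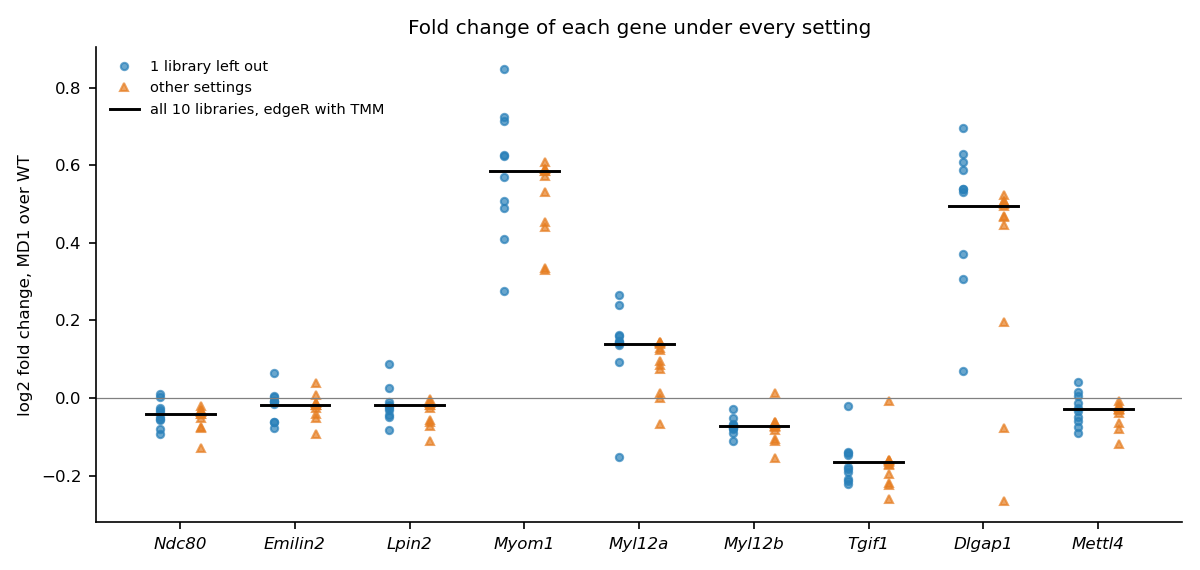
log2 fold change, MD1 over WT (vertical axis), of each of the 9 genes (horizontal axis, Ndc80 nearest to Smchd1 and Mettl4 farthest) with all libraries (black bar), with 1 library left out (blue circles) and under the other settings (orange triangles). Values of Ndc80 stay between -0.13 and 0.01, while those of Myom1 range from 0.28 to 0.85 and those of Dlgap1 from -0.27 to 0.69.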

How the data were processed

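RNA of dissected FNP tissue was made into libraries with a kit that does not keep the strand. Per the study's methods, 75-base single-end reads were trimmed (Trim Galore 0.4.4), mapped to GRCm38.p6 (HISAT2 2.0.5) and quantified in SeqMonk. Raw counts of reads for each gene were deposited by the authors in 1 table, and log2 RPKM, normalized for library size and transcript length, in another. The authors also deposited a mean count for each genotype, a value of the signal kind with decimals, and a mean log2 RPKM. These averages entered no test. Of 35591 rows, 49 repeated an identifier and 27 symbols stored as dates were restored, leaving 35542 genes. No library pair (45 compared) agreed within sampling noise.

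Counts were tested in R 4.3.3 with edgeR 4.0.16 (quasi-likelihood, TMM, filterByExpr, 15982 genes kept, p-values of 15452 autosomal genes adjusted by Benjamini-Hochberg, threshold 0.05). The fit set 4 MD1 against 6 WT libraries with no covariate. Sex chromosomes were left out, as in the study. The code was tested on simulated data. Alternatives used DESeq2 1.42.0, limma 3.58.1, other scalings and filters, sex as a covariate, the replicate block, leaving out each library in turn, and both labelled MD1 female. Summing the Myl12 models was chosen after seeing the data. The depth of 4195119 to 24125084 counts limits the precision of low genes. Exons came from GENCODE M21 and promoter windows from RefSeq, where all 9 genes matched.

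The named genes are the 9 and Smchd1. Of the other genes within 3 Mb they are those called and the 3 highest and 3 lowest with a mean of at least 1 CPM. The nearest on each side and those that overlap the span of Smchd1 are named too. Of each role list they are those called and the 2 with the smallest p. The members and lists were chosen with earlier results of these data known.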

Additional observations from a re-analysis of the deposited data

Results flagged for a closer look

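Tgif1 in MD1 replicate 4, at 40.3 CPM, was set off from the other 3 MD1 libraries (63.0 to 65.7 CPM) by more of the group's range than Dixon's 95% limit for 4 samples allows. Emilin2 in WT replicate 1, at 40.5 CPM, was likewise set off from the other 5 WT libraries (51.9 to 55.6 CPM) by more than the limit for 6 samples. This check marks about 1 in 20 groups by chance, and 18 groups were looked at. The hypoxia list was 3.59 and 1.24 log2 units above the WT mean in these 2 libraries. In MD1 replicate 1 it was 1.18 above, with Tgif1 at 63.0 CPM and Emilin2 at 55.5 CPM, both inside the WT range. The part of the hypoxia list in either value was not tested.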

How the results depend on the processing

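The count of the 9 genes called was 0 under all 21 alternatives, and so was that of the other genes within 3 Mb. Over all autosomal genes, 12 calls became 51 with the DESeq2 Wald test, 4 with limma on log2 RPKM, 6 without both libraries labelled MD1 female, 0 with the replicate number as a block, and 4 to 13 with 1 library left out. The replicate block left all 9 genes uncalled too (0). A check of the numbers gave no sign of pairing. The correlations of same-numbered libraries were 0.00168, -0.0738, 0.0497 and -0.118, and none correlated best with its own number. On so few libraries, some of which stood apart, the check cannot exclude a pairing. In the model by sex, calls among the 9 ranged from 0 to 4 over the left-out libraries, the 4 being Myl12a and Tgif1 in females and in the difference without MD1 replicate 1.

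Values near 0 changed sign under some settings, and the causes were not tested. With 1 library left out, the log2 fold change of Emilin2 ranged from -0.077 to 0.064 (above 0 without MD1 replicate 4, WT replicate 3 or WT replicate 4), of Lpin2 from -0.082 to 0.087 (without MD1 replicate 3 or WT replicate 4), of Ndc80 from -0.094 to 0.011 (without MD1 replicate 3 or 4), of Mettl4 from -0.091 to 0.040 (without MD1 replicate 3 or 4, or WT replicate 4) and of Myl12a from -0.151 (without MD1 replicate 4) to 0.265. With the replicate block it was 0.009 for Emilin2 and -0.077 for Dlgap1. Leaving out the pair labelled MD1 female gave 0.038 for Emilin2, -0.068 for Myl12a and -0.265 for Dlgap1. Limma on log2 RPKM gave -0.000424 for Myl12a, and Myl12b gave 0.014 when summed with Myl12a and Gm49909. Depth limits Dlgap1 and Myom1 most, with 58 and 178 reads in MD1 and 81 and 274 reads in WT.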
